A study of Mus musculus with 4 samples.

Results

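Transcripts of 9 complement genes were measured in leukocytes sorted from mouse brain after cardiac arrest. The set comprised the classical pathway genes C1qa, C1qb, C1qc and C4b, the central component C3, the alternative pathway genes Cfb and Cfp, and the receptor genes C3ar1 and C5ar1, and was taken by symbol from the 32285 genes counted. Wild-type C57Bl/6 mice, young at 3 to 6 months or aged at 18 to 20 months, had either sham surgery or cardiac arrest (CA), brought on with KCl and followed by resuscitation. On day 3, brains were dissociated mechanically, cells were enriched on Percoll, and CD45+ cells, that is leukocytes, were collected by sorting for droplet-based sequencing of transcript 3′ ends. A single library represented each of the 4 groups, made from 3 pooled mice that cannot be told apart. No value therefore has a spread between animals, no test of a condition was possible, and each interval is a 95% interval for counting error only. Where 4 values follow each other, the young pair comes first and the aged pair second, with sham before CA in each pair.

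Complement is a proteolytic cascade of innate immunity that tags targets for uptake and releases small peptides that signal to leukocytes. In the classical pathway, C1q, built from A, B and C chains, binds a target and leads to cleavage of C4 and then of C3. In the alternative pathway, factor B amplifies C3 cleavage and properdin stabilises the enzyme, while the peptides C3a and C5a act through their own receptors. Microglia are known as the main source of C1q in the brain, where complement also takes part in the removal of synapses.

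The 9 genes are protein-coding and lie on the minus strand of their chromosomes. Positions are from GENCODE M21 on GRCm38, which is the mm10 assembly. C1qa (chr4:136895917-136898803), C1qc (chr4:136889804-136893065) and C1qb (chr4:136880129-136886187) sit side by side within 18675 bases, each with 3 exons. C4b (chr17:34728380-34743882, 41 exons) and Cfb (chr17:34856374-34862518, 18 exons) lie on the same chromosome, and C3 (chr17:57203970-57228136, 41 exons) lies farther along it. Cfp is at chrX:20925454-20931555 (9 exons), C3ar1 at chr6:122847138-122856161 (2 exons) and C5ar1 at chr7:16246743-16259540 (3 exons). C4b has a near-identical copy, C4a, and Cfb is overlapped on its own strand by the gene model Gm20547, so reads of both genes could be lost or shared and their levels are uncertain.

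Upstream sequence is shown for C1qb and C1qc, neighbours that were higher together after CA, and for C3 and C3ar1, a peptide precursor and its receptor, both of which were present in monocytes. RefSeq promoters on GRCm38.p6 matched 6 of the 9 genes (C1qb, C1qc, C3, Cfp, C3ar1 and C5ar1). The 250 bases before each RefSeq start were searched on both strands for GAGGAA (ETS type), TTGCNNAA (C/EBP type), TTCNNNGAA (STAT type), an interferon response type of motif (GAAA and a second GAAA after 2 free bases) and an NF-kB type (GGG and TTTCC with 2 free bases between). Capitals mark matches, the sequences read 5′ to 3′ on the minus strand, and bases inside the GENCODE gene are left out, which shortened the windows of C1qc and C3ar1. The stretches are chr4:136886201-136886450 for C1qb, chr4:136893066-136893164 for C1qc, chr17:57228137-57228386 for C3 and chr6:122856162-122856407 for C3ar1.
C1qb: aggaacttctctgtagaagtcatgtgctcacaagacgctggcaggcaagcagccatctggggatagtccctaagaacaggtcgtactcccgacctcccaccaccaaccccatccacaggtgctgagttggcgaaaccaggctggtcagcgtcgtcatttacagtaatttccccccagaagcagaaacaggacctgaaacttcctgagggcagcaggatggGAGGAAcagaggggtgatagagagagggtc
C1qc: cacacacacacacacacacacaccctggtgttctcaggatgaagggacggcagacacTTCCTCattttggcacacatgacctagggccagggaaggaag
C3: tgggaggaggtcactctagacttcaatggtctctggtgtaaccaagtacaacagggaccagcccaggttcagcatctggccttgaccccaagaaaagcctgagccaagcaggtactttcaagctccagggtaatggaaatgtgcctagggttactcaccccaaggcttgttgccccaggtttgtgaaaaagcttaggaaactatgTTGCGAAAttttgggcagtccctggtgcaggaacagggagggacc
C3ar1: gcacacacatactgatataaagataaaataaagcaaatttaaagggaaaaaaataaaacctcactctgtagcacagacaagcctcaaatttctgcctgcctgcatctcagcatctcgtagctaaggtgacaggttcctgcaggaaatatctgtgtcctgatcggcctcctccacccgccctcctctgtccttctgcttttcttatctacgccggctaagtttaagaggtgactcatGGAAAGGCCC
GAGGAA was present once in C1qb and, on the opposite strand, once in C1qc, and 23.3% of all 32851 promoters of this length hold it. TTGCNNAA was present once in C3, against 9.56% of promoters. The NF-kB type was present once in C3ar1, on the opposite strand, against 1.41%. The STAT type (7.02% of promoters) and the interferon response type (2.98%) were in none of the 6 windows, and Cfp and C5ar1 held none of the 5 motifs. No match overlapped another. A match here is a run of letters, and binding was not measured.

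Cells were assigned to classes by marker genes that exclude complement. After filtering there were 8120, 9310, 7083 and 5611 cells, and the median cell held 5907.5, 9507.5, 3232 and 10282 unique molecular identifiers (UMIs, counted transcripts), so depth was greater after CA at both ages. Of these, 7560, 8341, 5132 and 4396 were microglia, with a median of 10 to 12 of 12 microglial markers and 1 of 10 markers of border-associated macrophages (BAM) per cell. Between 75 and 326 microglia per library lay near the limit of the assignment, with the fewest markers allowed or a close second class. The summed level of microglial markers was 24188, 15095, 20313 and 10055 CPM, lower after CA. Levels here are CPM, a gene's UMIs relative to all UMIs of a class in a library. Barcodes with markers of several classes made up 3.05%, 4.03%, 18.6% and 8.75% of cells and were set aside. Pairs of libraries shared 15 to 32 barcode sequences. The leading clusters of microglia differed between sham and CA, while the sham libraries shared clusters 1 and 0. In sham they were 1 (49.3%) and 0 (34.1%) in young and 4, 1 and 0 (25.8%, 24.7% and 22.7%) in aged mice. After CA they were 2, 6 and 7 (20.8%, 20.05% and 18.4%) in young and 5, 8 and 12 (39.1%, 19.4% and 16.9%) in aged mice. The clusters also differed in depth.

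The C1q chains, which recognise targets of the classical pathway, were higher in microglia after CA at both ages. C1qa stood at 4894, 7710.5, 5322 and 7287 CPM. C1qb stood at 4009, 6765, 4390.0 and 6866 CPM, and C1qc at 3372, 5422, 3529.5 and 6161 CPM. For each chain both CA libraries lay above both sham libraries. The ratio of CA to sham in young microglia was 1.58 (1.57 to 1.58) for C1qa, 1.69 (1.68 to 1.70) for C1qb and 1.61 (1.60 to 1.62) for C1qc. In aged microglia it was 1.37 (1.36 to 1.38), 1.56 (1.55 to 1.57) and 1.75 (1.73 to 1.76). Between ages the chains differed little, with ratios of aged to young of 1.09, 1.09 and 1.05 in sham and 0.945, 1.01 and 1.14 after CA. Microglia held 96.8%, 97.5%, 91.6% and 93.7% of all C1qa UMIs of their libraries.

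**Figure D1:**
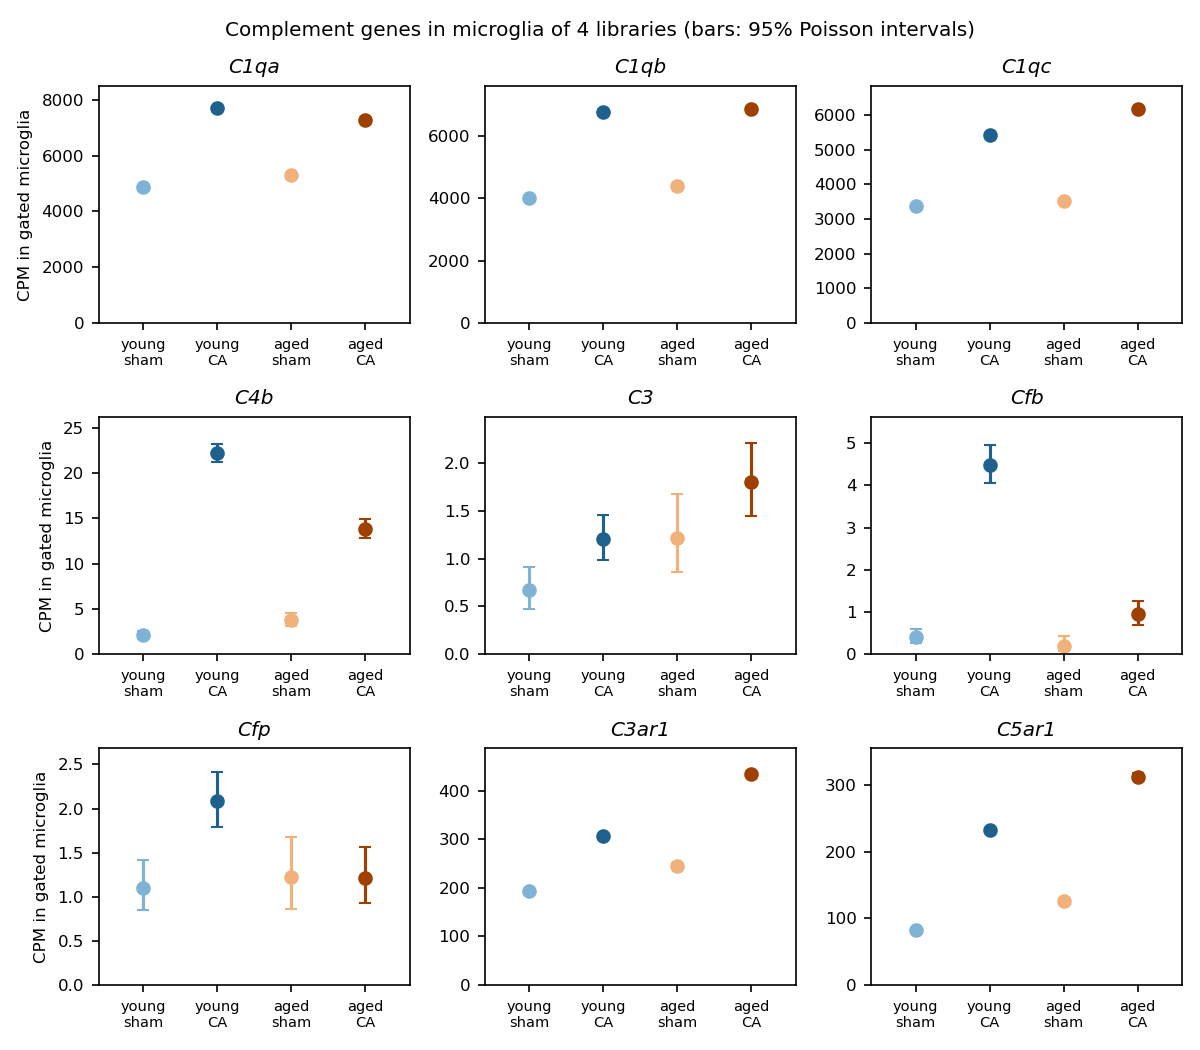
Level of each of the 9 genes in microglia, in CPM, for the 4 libraries, with 95% Poisson intervals. The C1q chains, C3ar1 and C5ar1 were higher in both CA libraries than in both sham libraries, and C4b and Cfb were highest in young CA.

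The proportions of the chains set aged CA apart. C1qa supplied 39.9%, 38.8%, 40.2% and 35.9% of the C1q UMIs in microglia, lowest in aged CA. C1qc supplied 27.5%, 27.2%, 26.7% and 30.3%, highest in aged CA. BAM, the resident macrophages of the brain's borders, had 40.03% (39.0% to 41.1%) C1qa in young sham and 40.3% (39.2% to 41.3%) in young CA. Monocytes, which enter from blood, drew the largest share of their C1q UMIs from C1qb, 46.3% (45.2% to 47.3%) in young CA and 48.5% (47.0% to 49.95%) in aged CA. In microglia of the same libraries C1qb supplied 34.0% and 33.8%. T and NK cells had 33.4% (30.6% to 36.4%) C1qb in aged sham, near the microglial 33.2%, and 39.1% (35.9% to 42.4%) in aged CA, above the microglial value.

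**Figure D2:**
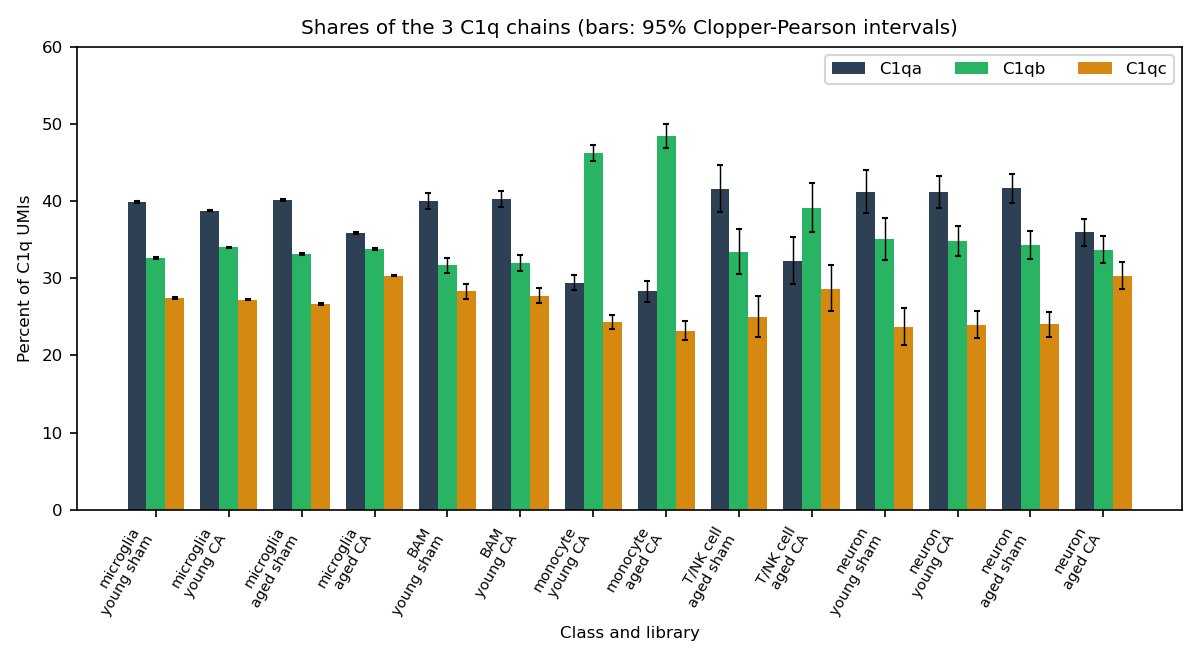
Percent of C1q UMIs from C1qa, C1qb and C1qc in each class and library with 50 or more cells, with 95% Clopper-Pearson intervals. C1qa led in microglia, BAM and neurons, and C1qb led in monocytes, at 46.3% and 48.5%.

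Neuronal barcodes, a class that should lack C1q, were used to read the background of free RNA. C1qa in neurons stood at 111, 380.2, 259 and 207 CPM, which was 2.27%, 4.93%, 4.86% and 2.85% of the microglial level in the same library. Neurons were deeper than microglia in each library, so these percents of CPM are smaller than the same ratios of UMIs per barcode. In young sham, 107 neurons held 500 C1qa UMIs and 7560 microglia held 279299. With cells thinned to 2000 UMIs, 27.6%, 41.6%, 54.3% and 23.1% of neurons and 99.3%, 99.9%, 98.6% and 99.5% of microglia had a C1qa UMI. Cells under 2000 UMIs were left out of these and later values thinned to that depth. This removed 2, 10, 44 and 13 neurons and 722, 453, 1504 and 130 microglia, most in aged sham. Unthinned shares are over all cells of a class, so the 2 kinds of share differ in cells as well as depth. Unthinned, the shares were 95.3%, 98.0%, 91.7% and 83.3% of neurons, at a median of 38104, 24082, 5267 and 29318.5 UMIs, and 99.7%, 99.9%, 99.2% and 99.7% of microglia, at a median of 5721, 9375, 3725 and 10772 UMIs. The C1qa share of the chains in neurons was 41.3%, 41.2%, 41.7% and 36.0%, lowest in aged CA as in microglia. Values of neurons are read as background, and they differed between libraries: 5 of 6 members that reached 10 CPM in neurons were 2-fold or more higher in young CA than in young sham (background of all genes 5.65% higher and 1.61% lower). Of the 5, C3ar1 and C5ar1 reached 10 CPM in young CA alone and could enter only as higher. In aged CA against aged sham 0 of 5 were (5.02% and 3.84%). Between ages, 3 of 3, the C1q chains, were higher in aged sham (4.14% and 1.05%), and 1 of 6, C5ar1, was lower in aged CA (3.14% and 3.4%). C5ar1 was eligible there through young CA alone and could enter only as lower. The C1q difference between the sham libraries was one of CPM, since aged sham neurons were shallower. Per barcode their C1qa UMIs were similar, 1150 in 252 neurons of aged sham against 500 in 107 of young sham. In T and NK cells of aged mice, 0 of 4 members were 2-fold apart between CA and sham (8.44% and 10.2%).

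C4b, the factor cleaved once C1q has bound, was highest in BAM and showed a large difference in microglia. BAM stood at 386 CPM in young sham (59 cells) and 451 CPM in young CA (52 cells), a ratio of 1.17 (0.960 to 1.42). Microglia stood at 2.14, 22.2, 3.78 and 13.8 CPM, from 122, 1948, 118 and 685 UMIs. Both CA libraries were above both sham libraries, and young CA was highest. The ratio of CA to sham in microglia was 10.4 (8.64 to 12.6) in young and 3.65 (3.00 to 4.48) in aged mice. C4b in aged CA microglia was 0.623 (0.571 to 0.680) of that in young CA. With cells thinned to 2000 UMIs, 0.292%, 4.03%, 0.854% and 3.14% of microglia had a C4b UMI, and unthinned 0.807%, 13.3%, 1.19% and 10.5% did. In neurons thinned likewise it was 0 of 89 in young CA, which allows a share of up to 3.37%. All 10 BAM markers had UMIs among microglia, at a sum of 286, 294, 214 and 146 CPM, lower in aged CA than in aged sham and nearly level between the young libraries. Microglia held 26.5%, 86.5%, 31.1% and 72.8% of the C4b UMIs of their libraries.

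The C4b level of young sham microglia rested on few cells. Cluster 19, led against other clusters by the MHC class II genes H2-Ab1, H2-Aa and Cd74, held 54 young sham microglia, 0.714%, and 61 of the 122 C4b UMIs, at 91.7 CPM. The other 7506 stood at 1.08 CPM. Summed BAM markers were 279.6 CPM inside that cluster and 286 CPM outside it. Without the cluster, the log2 ratio of CA to sham in young microglia was 4.35 in place of 3.37, and that of aged to young sham was 1.78 in place of 0.82. The same cluster held C4b at 11.1 CPM in aged sham, from 3 UMIs, and at 41.9 CPM in aged CA, from 50 UMIs. The age difference in sham also moved the other way. With classes taken from clusters, the log2 ratio of aged to young sham was 0.18. In aged sham, 896 microglia (17.5%) lay in clusters not named microglia and held 36 of the 118 C4b UMIs, at 16.7 CPM. Aged sham microglia of named clusters stood at 2.83 CPM, against 2.17 CPM in young sham.

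Inside 4 clusters C4b was higher after CA in young mice, while C1qa differed by smaller ratios than over all microglia. In cluster 0, C4b stood at 6.83 CPM in young CA and 0.617 CPM in young sham, a ratio of 11.1 (5.84 to 21.4), and the ratio of C1qa was 1.06 (1.05 to 1.08). In cluster 1 the ratio of C4b was 24.9 (9.37 to 67.9), from 11 and 9 UMIs, and that of C1qa 1.04 (1.004 to 1.07). Clusters 2 and 6 gave 2.56 (1.42 to 5.16) and 5.41 (1.81 to 26.6) for C4b, and 1.11 and 1.15 for C1qa. Cluster 4 had 0 and 4 C4b UMIs and gave no ratio, and its ratio of C1qa was 1.18 (1.10 to 1.26). In aged mice, the ratio of C4b was 0.482 (0.214 to 1.12) in cluster 6, 7.59 (1.33 to 303) in cluster 12 and 3.77 (1.22 to 18.9) in cluster 19. Cluster 12 had 92 C4b UMIs after CA and 1 in sham. Clusters 6, 12 and 19 held only 79, 70 and 95 of 5132 aged sham microglia. The ratio of C1qa in these 3 clusters was 0.980, 1.30 and 1.32, that of C1qb 1.07, 1.45 and 1.48, and that of C1qc 1.31, 1.62 and 1.56. These ratios within clusters were added after the data had been seen.

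C4b also varied with interferon-induced transcripts, counted over 20 genes in microglia thinned to 2000 UMIs. In young sham it stood at 0.532, 2.92 and 51.9 CPM in cells with 0, 1 to 4, and 5 or more such UMIs, from 5, 12 and 8 C4b UMIs. In aged sham it stood at 3.34, 8.15 and 41.3 CPM, and in young CA at 12.7, 20.5 and 31.0 CPM. The top bin was thus highest in these 3 libraries. Aged CA had 16.5, 18.3 and 14.3 CPM and no such order. Microglia without an interferon UMI held 12.7 CPM (7.76 to 19.6) in young CA and 0.532 CPM (0.173 to 1.24) in young sham, so the libraries differed in that bin too. C5ar1 was instead lowest in the top bin in young CA, at 263, 257 and 199.7 CPM (188.6 to 211 in the top bin). In aged sham it stood at 134, 137 and 107 CPM. The top bin there held 26 UMIs (70.2 to 157 CPM), so it was not lower beyond counting error. C5ar1 was not lowest in the top bin in young sham, at 78.9, 85.0 and 84.4 CPM, or in aged CA, at 313, 328 and 333 CPM. C1qa was highest in the top bin in each library, at 4411, 5067 and 5688 CPM in young sham, so a higher level there was not particular to C4b. The bins are ranges of a count and not cell types.

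C3, cleaved by every pathway, was high in neutrophils and monocytes and low in microglia. Summed over the 4 libraries it stood at 176 CPM (155 to 199.7) in 104 neutrophils and 113 CPM (106 to 121) in 373 monocytes. Of the neutrophils 6 of 9, 8 of 16, 18 of 38 and 34 of 41 lay near the limit of the assignment, and the cluster led by neutrophil genes such as Ltf and Camp was left unnamed. BAM stood at 4.37 CPM (1.76 to 8.99) and microglia at 1.20 CPM (1.06 to 1.35), and no C3 UMI was counted in T and NK cells, B cells or oligodendrocytes. Monocytes stood at 112 CPM in young CA (273 cells) and 74.5 CPM in aged CA (73 cells), a ratio of aged to young of 0.666 (0.550 to 0.801). In microglia C3 stood at 0.666, 1.21, 1.22 and 1.80 CPM, from 38, 106, 38 and 89 UMIs. CA to sham gave a ratio of 1.81 (1.24 to 2.70) in young and 1.47 (0.998 to 2.22) in aged microglia, the latter not beyond counting error. Neurons of young CA had 0 C3 UMIs, which allows up to 1.20 CPM, so the level in young CA microglia was not separable from background at this depth. Neurons of aged CA stood at 0.201 CPM from 1 UMI, which was 0.112 (0.00280 to 0.639) of the microglial level. That rested on 1 UMI in barcodes deeper than microglia, so it did not separate the aged CA level from background.

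Cfb, which encodes the protease factor B, was largely a transcript of monocytes. It stood at 237 CPM in young CA monocytes and 39.3 CPM in aged CA monocytes, from 1261 and 75 UMIs. The ratio of aged to young was 0.166 (0.130 to 0.210). A Cfb UMI was present in 60.1% and 34.2% of these cells, at medians of 19978 and 26278 UMIs. Thinned to 2000 UMIs the shares were 25.2% and 6.85%, so the library with deeper monocytes had the lower share. Neurons thinned likewise had a Cfb UMI in 0 of 89 and 0 of 143 cells. Sham monocytes, 13 and 14 cells, were too few to compare. All 9 genes reached 10 CPM in monocytes after CA, and of these Cfb was 2-fold or more lower in aged CA and C4b, at 2.09 (1.29 to 3.36), 2-fold or more higher, where 10.4% and 6.74% of all eligible genes were. C4b stood at 8.27 CPM in young CA and 17.3 CPM in aged CA, so it was eligible through aged CA alone and could enter only as higher. With classes taken from clusters its log2 ratio was 0.59, under 2-fold.

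In microglia Cfb was low, with the highest level in young CA. It stood at 0.403, 4.50, 0.192 and 0.949 CPM, from 23, 395, 6 and 47 UMIs. Neurons of young CA had 0 Cfb UMIs, which allows up to 1.20 CPM, below the microglial level. In young sham, neurons had 3 Cfb UMIs, 0.668 CPM, so the microglial level there was not above background. In aged CA, neurons had 2 Cfb UMIs, 0.402 CPM, which was 0.423 (0.0498 to 1.62) of the microglial level. In aged sham they had 0, which allows up to 5.96 times the microglial level. Neither aged level was thus separable from background. The ratio of CA to sham was 11.2 (7.33 to 17.8) in young and 4.93 (2.10 to 14.1) in aged microglia, and aged CA was 0.211 (0.152 to 0.286) of young CA. All 10 monocyte markers had UMIs among microglia, at a sum of 15.9, 39.9, 35.1 and 15.97 CPM, which was also highest in young CA, and their part in the Cfb values was not tested.

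Cfp, which encodes properdin, was spread over several leukocytes. Summed over libraries it stood at 140.1 CPM (132 to 149) in monocytes, 105 CPM (88.3 to 123) in neutrophils, 90.4 CPM (76.3 to 106) in BAM and 28.3 CPM (18.3 to 41.8) in B cells. Microglia stood at 1.10, 2.08, 1.22 and 1.21 CPM and neurons at 9.57, 15.6, 9.68 and 11.2 CPM, so microglia were below neurons in each library. Syn1, a synaptic vesicle gene of neurons, lies 4450 bases from Cfp on the same strand, and whether its reads reach Cfp was not tested. The ratio of CA to sham in microglia was 1.89 (1.41 to 2.56) in young and 0.994 (0.651 to 1.53) in aged mice. In monocytes Cfp stood at 128 CPM in young CA and 189 CPM in aged CA, a ratio of 1.48 (1.30 to 1.68), opposite in direction to that of Cfb.

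**Figure D3:**
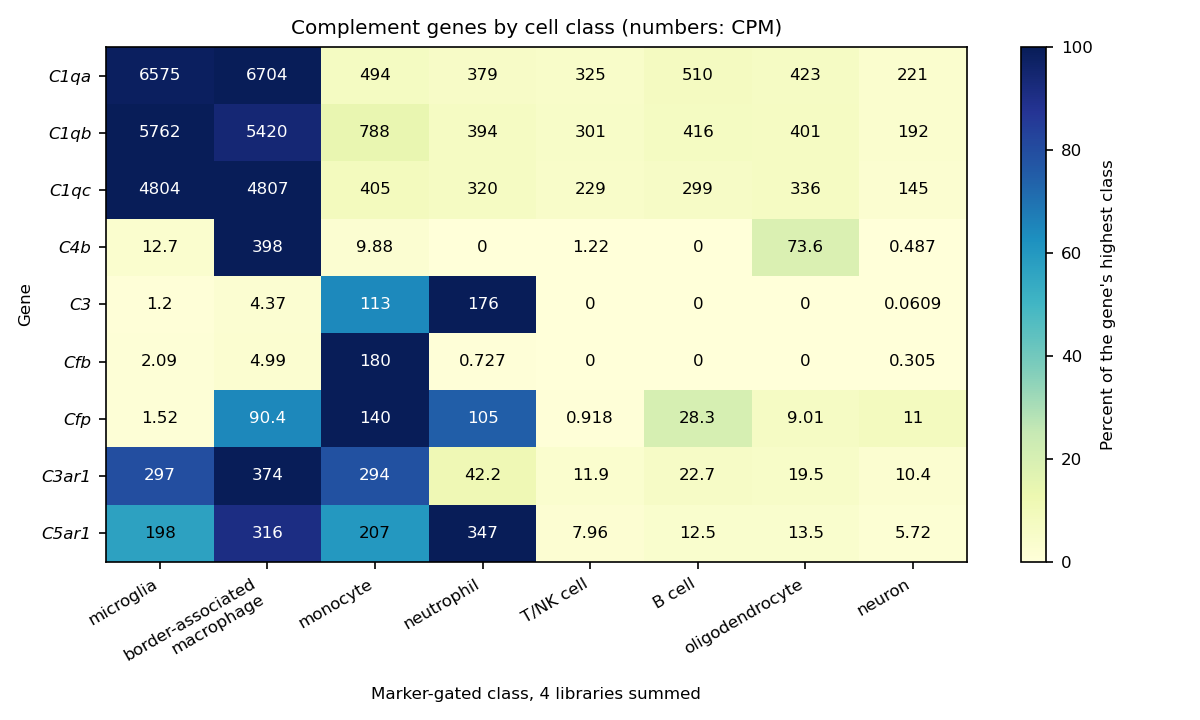
CPM of each gene in 8 classes summed over the 4 libraries (numbers), shaded by percent of the gene's highest class. C1q was high in microglia and BAM, C4b peaked in BAM at 398 CPM, C3 in neutrophils at 176 CPM and Cfb in monocytes at 180.0 CPM.

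C3ar1, which encodes the receptor for C3a, was a transcript of all 3 macrophage and monocyte classes. Summed over libraries it stood at 374 CPM (345 to 405) in BAM, 297 CPM (295 to 299.6) in microglia and 294 CPM (283 to 307) in monocytes. These sums weight the libraries unequally, since most monocytes came from CA libraries, and within libraries monocytes stood at 1.15 (1.09 to 1.20) times the microglial level in young CA and 0.494 (0.447 to 0.545) times in aged CA. In microglia it stood at 193, 307, 245 and 433 CPM, lowest in young sham and highest in aged CA. CA to sham gave a ratio of 1.59 (1.56 to 1.63) in young and 1.77 (1.72 to 1.81) in aged microglia. The ratio of aged to young was 1.27 (1.24 to 1.31) in sham and 1.41 (1.39 to 1.44) after CA. Thinned to 2000 UMIs, 27.8%, 41.6%, 32.9% and 51.5% of microglia and 0 of 105, 7.87%, 3.37% and 1.40% of neurons had a C3ar1 UMI, and 54.8%, 77.5%, 51.2% and 85.1% of microglia did unthinned. In monocytes C3ar1 was lower in aged CA than in young CA, at 214 against 352 CPM, a ratio of 0.608 (0.545 to 0.677).

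C5ar1, which encodes the main receptor for C5a, was highest in neutrophils and BAM. Summed over libraries it stood at 347 CPM (317 to 379.5) in neutrophils, 316 CPM (289 to 344) in BAM, 207 CPM (197 to 218) in monocytes and 198 CPM (196 to 199) in microglia. Within libraries monocytes were below microglia, at 0.866 (0.813 to 0.920) times their level in young CA and 0.896 (0.820 to 0.976) times in aged CA. In microglia it stood at 82.8, 232, 126 and 313 CPM, with both CA libraries above both sham libraries. Neurons stood at 1.78, 21.6, 1.58 and 5.02 CPM and so were also higher in both CA libraries, with 54 UMIs in 14 of 99 neurons of young CA. Their ratio of CA to sham was 12.1 (5.73 to 29.5) in young and 3.19 (1.34 to 8.72) in aged mice, and the part of this in the microglial difference was not tested. In microglia the ratio of CA to sham was 2.81 (2.72 to 2.90) in young and 2.47 (2.39 to 2.56) in aged microglia, and the ratio of aged to young in sham was 1.53 (1.46 to 1.59). Inside most clusters the ratio was smaller. In young mice it was 1.41 (1.27 to 1.55) in cluster 0, 1.26 (1.02 to 1.55) in cluster 1 and 0.833 (0.699 to 0.9996) in cluster 2, the last lower after CA, against 2.83 (1.93 to 4.10) in cluster 4 and 3.29 (2.56 to 4.30) in cluster 6. In aged mice it was 1.24 (0.910 to 1.72) in cluster 6, 1.19 (1.07 to 1.33) in cluster 12 and 1.20 (0.867 to 1.68) in cluster 19. These clusters held only 79, 70 and 95 of 5132 aged sham microglia, and 164, 741 and 101 of 4396 aged CA microglia. Thinned to 2000 UMIs, 13.8%, 30.8%, 19.9% and 38.4% of microglia and 0.952%, 0 of 89, 1.44% and 0.699% of neurons had a C5ar1 UMI, and 34.0%, 60.9%, 34.1% and 73.0% of microglia did unthinned. Among microglia of 2000 or more UMIs, thinned to that depth, the log2 ratio of CA to sham was 1.58 (young) and 1.31 (aged). At full depth, over all microglia, it was 1.49 and 1.31. In BAM of young mice C5ar1 stood at 408 CPM after CA and 199 CPM in sham, a ratio of 2.05 (1.61 to 2.62). It was the only one of 7 eligible members 2-fold or more apart there, where 8.36% of genes were higher and 9.15% lower.

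The age difference of C5ar1 after CA had the opposite direction inside most clusters. Over all microglia C5ar1 was 1.35 (1.32 to 1.37) times as high in aged CA as in young CA. In cluster 7 it stood at 181 CPM in aged CA and 284 CPM in young CA, a ratio of 0.639 (0.600 to 0.681). The ratio was 0.7004 (0.657 to 0.747) in cluster 5, 0.794 (0.677 to 0.926) in cluster 6 and 0.746 (0.717 to 0.776) in cluster 8, which had Spp1 among its leading genes. In cluster 12, led by genes such as Tnf, Cxcl10 and Ccl3, it was 0.807 (0.763 to 0.854), and in cluster 10, led by Ifit2 and Ifit3, it was 1.02 (0.898 to 1.15). C5ar1 was thus lower in aged CA in 5 of the 6 clusters that held 50 or more microglia in both libraries, and did not differ beyond counting error in the other. Cluster 2, with C5ar1 at 85.7 CPM, held 20.8% of young CA microglia and fewer than 50 cells of aged CA. Cluster 12, with C5ar1 at 495 CPM in aged CA, held 16.9% of aged CA microglia, 741 cells against 166 in young CA. The ratio of C3ar1 in clusters 5, 6, 7, 8, 10 and 12 was 1.02, 1.14, 0.926, 1.01, 1.12 and 1.28. It was above 1 beyond counting error in clusters 6 (1.01 to 1.29), 10 (1.03 to 1.22) and 12 (1.20 to 1.35), and below 1 in cluster 7 (0.882 to 0.973). The ratio of C1qa in the same clusters was 0.846, 0.958, 0.887, 0.856, 0.917 and 0.839.

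Among clusters the members peaked in different places when the 4 libraries were summed. C1qa was highest in cluster 8, at 9203 CPM, and lowest in cluster 1, at 3524 CPM. C4b was highest in cluster 19, at 52.3 CPM, with 28.8 CPM in cluster 9, led by the cell cycle genes Mki67 and Top2a, and 27.8 CPM in cluster 10. Within libraries the order differed. C1qa in aged CA stood at 8926 CPM in cluster 19 and 8416 CPM in cluster 8. C4b in aged sham stood at 11.1 CPM (2.29 to 32.5) in cluster 19 and 32.3 CPM in cluster 6. These came from 3 and 12 UMIs, so the order of C4b there was not beyond counting error. C3ar1 and C5ar1 were both highest in cluster 12, at 614 and 512 CPM, where C4b stood at 10.9 CPM. Inside clusters 8, 10 and 12 the ratio of C4b in aged to young CA was 0.652 (0.542 to 0.780), 0.430 (0.284 to 0.633) and 0.352 (0.253 to 0.493). In cluster 5 it was 0.972 (0.690 to 1.40).

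**Figure D4:**
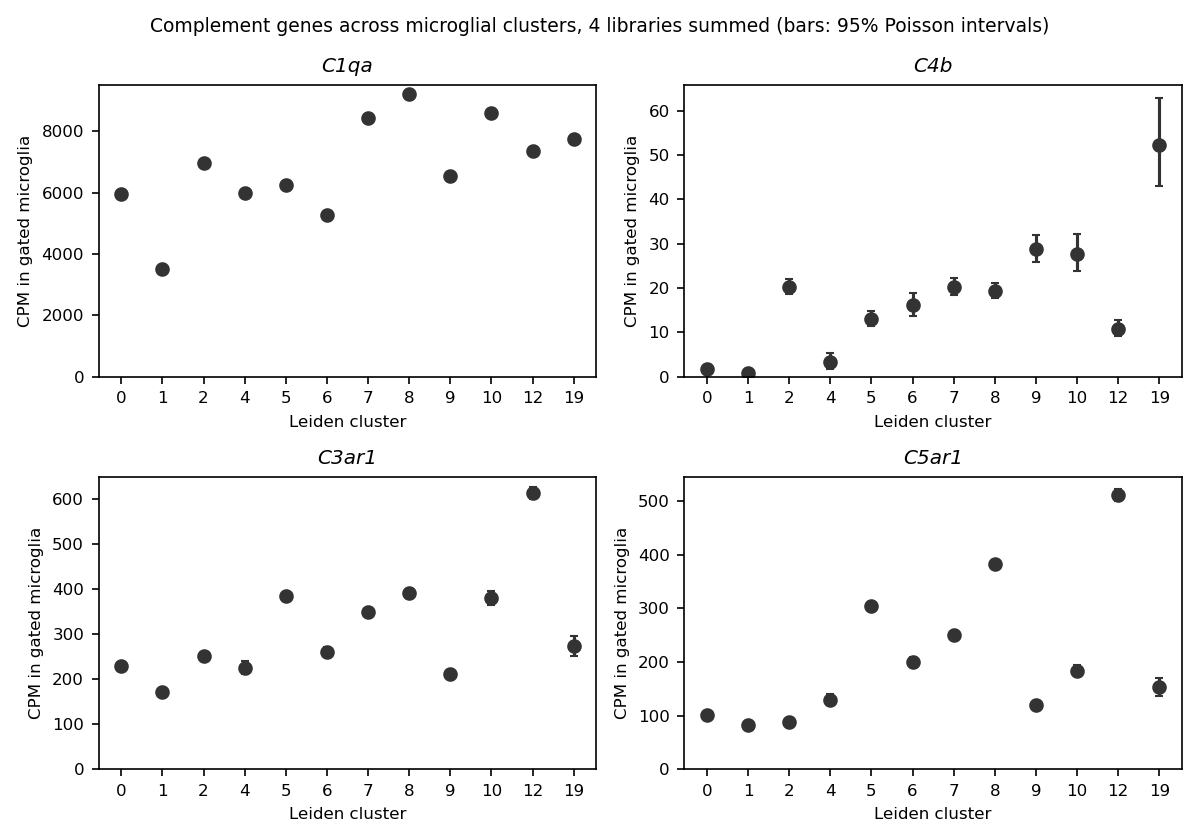
CPM of C1qa, C4b, C3ar1 and C5ar1 in microglia of each cluster named microglia, 4 libraries summed, with 95% Poisson intervals. C3ar1 and C5ar1 peaked in cluster 12, at 614 and 512 CPM, and C4b peaked in cluster 19, at 52.3 CPM.

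Counted as a set, 6 of the 9 genes reached 10 CPM in microglia in at least 1 library of each CA comparison, and C3, Cfb and Cfp did not. In young microglia 2 of the 6, C4b and C5ar1, were 2-fold or more higher after CA and none lower, where 6.7% of 9556 eligible genes were higher and 3.07% lower. The median log2 ratio was 0.72 for the 6 and -0.07 for all genes. In aged microglia C4b and C5ar1 were again 2-fold or more higher and none lower (6.38% and 9.3% of genes), with medians of 0.81 and 0.03. C4b reached 10 CPM through its CA libraries alone, so it could enter only by being higher there. It adds no support to either count, and the medians of the members include it and are raised by the same selection. Between aged and young sham, 0 of 5 members were 2-fold apart (2.96% of genes higher, 0.212% lower), and between aged and young CA 0 of 6 (2.3% and 3.48%). The 4 comparisons share libraries in pairs.

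**Figure D5:**
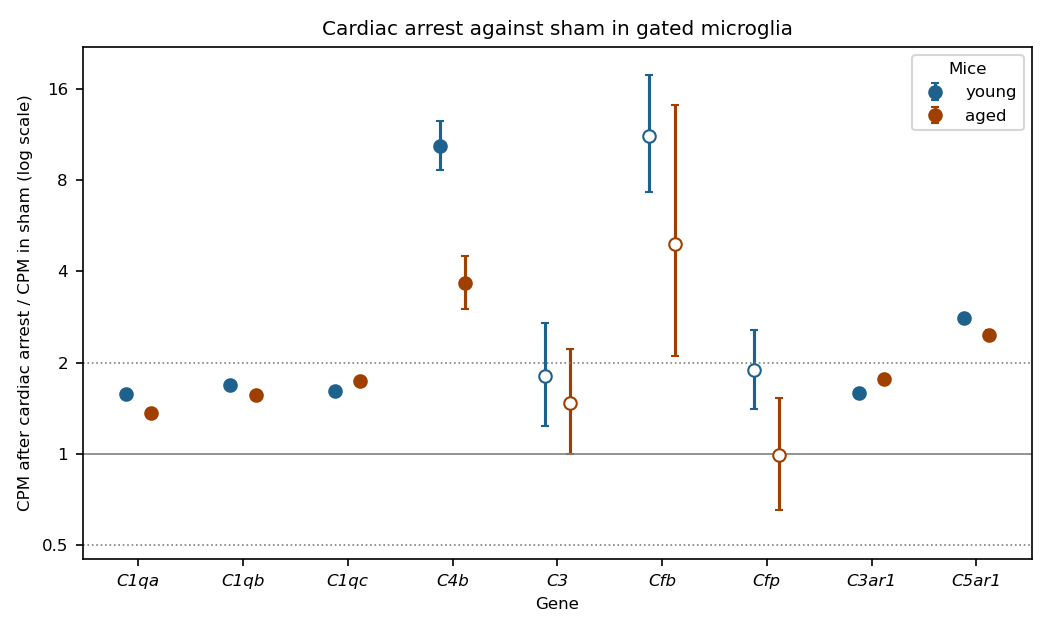
Ratio of CPM after CA to CPM in sham in microglia, on a log scale, with 95% intervals, for young and aged mice. Open points are genes under 10 CPM in both libraries, and dotted lines mark 2-fold. C4b and C5ar1 lie above 2-fold at both ages, and Cfb does so at low counts.

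Of 56 other genes of the pathway, 13 reached 10 CPM in microglia in each CA comparison. In young mice 1 was 2-fold or more higher after CA and 1 lower, against 6.7% and 3.07% of all eligible genes. Among receptors Itgax, a subunit of complement receptor 4, was the higher one, at 15.4 against 4.36 CPM, a ratio of 3.54 (3.09 to 4.06). It reached 10 CPM in young CA and not in young sham, so it could enter only as higher. Csmd3, a membrane protein with complement control domains, was 3.23-fold lower. In aged mice 2 were higher and 4 lower, against 6.38% and 9.3%. Cd46, a cofactor in the inactivation of C3b, had a ratio of 2.62 (2.42 to 2.85), and C1qbp, a protein that can bind C1q, stood at 76.2 against 38.1 CPM. Csmd3 was 3.36-fold lower, Csmd1 3.11-fold lower and C5ar2, a second C5a receptor, 2.16-fold lower. Between ages, Csmd1 was 2.79 times as high in aged as in young sham, the only one of 12 eligible genes past 2-fold. Among all genes 2.96% were higher and 0.212% lower there. In aged sham, however, 896 microglia (17.5%) lay in clusters not named microglia. With only clusters named microglia, 144 genes in place of 279 were 2-fold or more higher in aged sham. Whether those cells raised Csmd1 or Csmd3 in aged sham was not tested. After CA 1 of 13 eligible genes was 2-fold or more higher in aged mice and 1 lower, against 2.3% and 3.48% of all genes. The higher one was Cd46, at 2.36 times the young level. None of the 8 listed genes of the alternative and terminal pathways reached 10 CPM in microglia.

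The 3 genes most like each member were found by Pearson's r of log2(CPM + 1) over 14 sums of a class in a library, among 10382 genes. These r are descriptions, since sums share libraries and depth. C1qa was closest to C1qc (above 0.99), C1qb (0.99) and Glul (0.98). C1qb and C1qc were closest to the other chains and then to Heatr5a (0.98 for each). C4b was closest to Rbpj (0.97), Dab2 (0.96) and Cd36 (0.95). C3 was closest to Pira2 (above 0.99), Ifi205 (0.98) and Ifitm6 (0.97), Cfb to Apoc2 (0.95), Gsn (0.93) and Gm5150 (0.93) and Cfp to Serpinb8 (0.97), Myof (0.95) and Dram1 (0.94). C3ar1 was closest to Grn (0.99), Rassf4 (0.99) and Ctsh (0.99), and C5ar1 to Tlr13 (0.99), Rassf4 (0.97) and Milr1 (0.97).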

How the data were processed

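UMI counts per gene and barcode were deposited by the authors as raw matrices, made with Cell Ranger 7.1.0 on mm10 per the submitters' processing notes. The annotation, cell calling and use of intronic reads are not given in the sources used here. The libraries held 72648041, 115892682, 44277472 and 70924569 UMIs over 9038, 10794, 7700 and 6794 barcodes.

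Barcodes were kept at 500 or more UMIs, 200 or more genes and at most 10% mitochondrial UMIs (308, 663, 162 and 906 failed). Scrublet's automatic threshold marked 0 barcodes in each library, so those with the highest scores were removed at 0.8% per 1000 barcodes (610, 821, 455 and 277). A cell was scored on each of 14 marker lists by its marker levels relative to core cells (5 or more markers and 50% of the list), and it took the list with the highest score if 3 or more markers were seen and the next score was at most 0.5 of it. The score replaced a share of markers detected after class counts, but not complement values, had been seen. The rule for naming clusters was also revised once after clusters had been seen. Leiden clustering (scanpy 1.11.5, Python 3.11.15) left out complement genes. Summed counts gave CPM with exact Poisson intervals, ratios with exact conditional binomial intervals and shares with Clopper-Pearson intervals, all at 95%. Log2 ratios added 0.5 UMIs to each sum. A gene was eligible at 10 CPM in 1 of the libraries compared, and classes under 50 cells in a library were not compared. With 1 library per group no count model was fitted. Calculations were tested on simulated data. TMM factors came from edgeR 4.0.16 on R 4.3.3. The 9 members, up to 10 listed pathway genes past 2-fold and the 3 most similar genes per member are named. 1 listed pathway gene is counted but not reported here. Members and lists were chosen with earlier results of these data known.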

Additional observations from a re-analysis of the deposited data

Results flagged for a closer look

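Cfp in microglia had a log2 ratio of CA to sham of 0.91 in young and -0.02 in aged mice, opposite in sign. The difference between the ages was not tested, and the interval of the aged ratio, 0.651 to 1.53, includes no difference.

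Some classes had fewer than 50 cells in each library and entered no comparison, but, summed over the 4 libraries, held members above the limit that a count of 0 allows and above microglia. In neutrophils C3 stood at 176 CPM, Cfp at 105 CPM and C5ar1 at 347 CPM. In B cells Cfp stood at 28.3 CPM. In oligodendrocytes C4b stood at 73.6 CPM and Cfp at 9.01 CPM, the latter near the neuronal level of 11.0 CPM.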

How the results depend on the processing

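No paired analysis was possible because each group was 1 library, so the groups share fewer than 2 replicate numbers. The number of microglial members past 2-fold stayed within 1.5 times its value in 59 of 60 recomputations (TMM and median-of-ratios scaling, mean over cells, other UMI and mitochondrial limits, doublets kept, a stricter gate, cluster classes, thinning, haemoglobin-rich barcodes left out, eligibility at 1 CPM, a pseudocount of 1 CPM and, chosen after seeing the data, clusters named microglia only and all but the MHC class II cluster). The exception was aged against young CA with eligibility at 1 CPM, which gave 1 in place of 0 (Cfb, lower), because more genes are then eligible. Of 657 recomputed log2 ratios, 516 stayed inside the counting interval and 141 left it, and no ratio past 2-fold changed sign. TMM scaling moved the median of all genes from -0.07 to 0.12 in young and from 0.03 to 0.13 in aged microglia, and that of the eligible members from 0.72 to 0.90 and from 0.81 to 0.90. Genes higher and lower after CA in young microglia numbered 640 and 293, or 874 and 177 with TMM. C1qb in aged against young CA changed sign, from 0.02 to -0.06 with TMM. C4b after CA ranged from 2.89 to 4.35 in young and from 1.48 to 2.28 in aged microglia, and C5ar1 from 1.46 to 1.67 and from 1.29 to 1.40. Members under 10 CPM moved most: in aged mice C3 ranged from -0.38 to 1.46, Cfp from -0.97 to 0.62 and Cfb from 0.68 to 2.80. In monocytes Cfb ranged from -2.63 to -2.52, C4b was 0.59 with cluster classes, under 2-fold, and Cfp was -0.05 in 1 random draw of thinned counts, while another draw to 2000 UMIs gave 0.222 UMIs per cell in young CA and 0.425 in aged CA, higher in aged CA as at full depth. The cause of these moves was not tested. Thinning to 1000 UMIs moved 30 of 36 shares of cells beyond their intervals, since a shallower cell shows fewer genes. Cells between 1000 and 2000 UMIs also entered only at the lower depth.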

Other observations

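Sham microglia also differed by age inside clusters. In cluster 1, C5ar1 stood at 109 CPM in aged sham and 70.7 CPM in young sham, a ratio of 1.54 (1.42 to 1.67), and in cluster 0 the ratio was 1.40 (1.31 to 1.48). C1qa in these clusters had ratios of 1.03 and 1.02. C4b in cluster 0 was 4.35 (2.41 to 8.14) times as high in aged sham, from 36 and 18 UMIs.

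Spread over single microglia differed between members. With cells thinned to 2000 UMIs, the variance of C5ar1 UMIs divided by their mean was 1.20, 1.61, 1.52 and 1.85, and that of C3ar1 was 1.24, 1.27, 1.28 and 1.43. The 10% of microglia with most UMIs of a gene held 76.7, 55.4, 63.1 and 48.9% of C5ar1 UMIs and 51.1, 42.1, 50.1 and 38.1% of C3ar1 UMIs. The mean per thinned cell was 0.162, 0.472, 0.269 and 0.652 UMIs for C5ar1 and 0.365, 0.609, 0.458 and 0.865 for C3ar1. Within each gene the share in the top 10% fell as the mean rose, so these shares do not show concentration in a subset of cells.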
